A study of Sus scrofa with 13 samples.

Results

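The ion channel genes of pig skeletal muscle described here are those whose symbol begins with KCN, with SCN and a digit, with CACN, with CLCN or with HCN. On the array used, 62 of 10412 named genes met this rule, from 65 of 21893 probe sets, and where a gene had several probe sets the brightest one on average stood for it. By ion the set holds 43 potassium, 13 calcium, 4 sodium and 2 chloride channel genes, and 0 HCN genes. A name for the set as voltage-gated and chloride channels covers it only in part. Its 7 inward rectifiers and 6 two-pore potassium channels are not gated by voltage, several of its 9 calcium- or sodium-activated potassium channel genes are not either, and the 2 CLCN genes, CLCN3 and CLCN6, encode chloride-proton exchangers of inner membranes and not the chloride channel of the muscle surface.

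A muscle fibre fires when sodium channels open along its surface and down its transverse tubules. The voltage-sensing calcium channel there, the dihydropyridine receptor, then triggers calcium release from the store, and potassium and chloride channels return the membrane to rest. Dystrophin ties the cytoskeleton of the fibre to the surrounding matrix, and its loss leaves the surface membrane fragile and fibre calcium poorly controlled. Some channels that are silent in innervated adult muscle, such as the small-conductance potassium channel SK3 in rodents, return when a fibre is denervated.

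RNA came from the biceps femoris of German Landrace pigs, with 1 array for each animal. Of the animals aged 2 days, 4 were dystrophin knockouts (DMD KO) and 3 wild type (WT), and of those aged 3 months 3 were DMD KO and 3 WT. The series describes them as biological replicates. The knockout animals were cloned by nuclear transfer from kidney cells in which exon 52 of DMD, the dystrophin gene, had been deleted by way of a modified bacterial artificial chromosome. Their muscle was taken right after they died, whereas WT pigs were killed at matched ages, so genotype, cloning and the manner of death cannot be told apart. The array annotation does not place the DMD probe sets relative to exon 52. Their differences of 0.11 (adjusted p 0.705) and 0.23 at 2 days and of -0.22 (adjusted p 0.528) and -0.0021 at 3 months therefore check nothing about the labels.

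The values are log2 levels that ran from 2.81 to 13.79, with array medians from 7.32 to 7.38 and 25th percentiles from 6.54 to 6.61. The mean over 13 arrays was under the highest 25th percentile for 16 of the 62 genes, under the highest array median for 38, and over the highest 75th percentile for 6. A group mean under the highest 25th percentile is called dim here, and 21 genes had at least 1 such mean. The deposited values also held exact ties: CLCN6 had the same value on 6 of 13 arrays, KCNH8 on 5 and KCNK10 on 4, and 11 channel genes shared a value on 3 or more arrays, as did 15.5% of all probe sets.

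A total of 2 arrays bear on many of the values below. WT replicate 3 at 2 days had the lowest mean correlation with the other arrays, 0.918 against 0.943 to 0.964 for the rest, and the lowest 95th percentile, 9.21. It held the highest of the 13 values for 24 of the 62 channel genes. DMD KO replicate 3 at 3 months had the highest 95th percentile, 9.83, and held the lowest of the 13 values for 21 channel genes. The mean of the 62 genes on an array was 7.06 to 7.13 in DMD KO and 7.13 to 7.26 in WT at 2 days, and 6.94 to 7.12 in DMD KO and 7.08 to 7.20 in WT at 3 months.

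**Figure D1:**
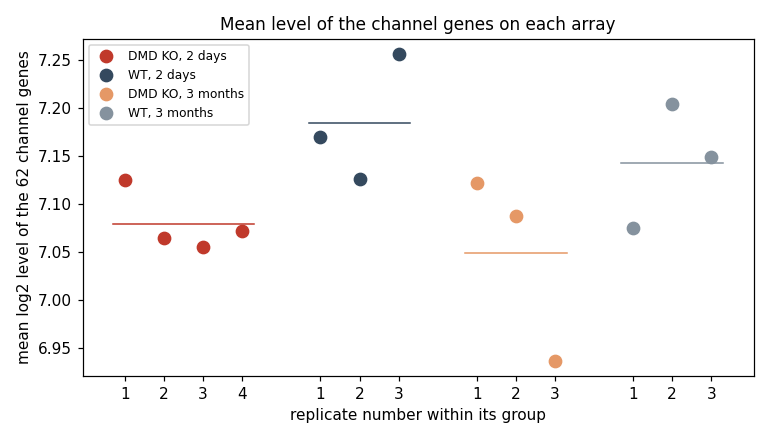
Mean log2 level of the 62 channel genes on each of the 13 arrays (y axis, not starting at 0), by group and replicate number (x axis), with a line at each group mean. WT replicate 3 at 2 days is the highest point at 7.26 and DMD KO replicate 3 at 3 months the lowest at 6.94.

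The core channels of the muscle fibre were only partly on the array under a single symbol. Of 16 such genes, 8 were measured: SCN4A, CACNB1, CACNG1, CACNG6, KCNJ2, KCNJ11, KCNN3 and KCNMA1. The others, among them the chloride channel gene CLCN1, the pore gene of the dihydropyridine receptor CACNA1S, and CACNA2D1, KCNJ12 and KCNC4, were not analysed here. The tissue label held in the fibre markers, whose 4 measured genes averaged 11.7 to 12.5 on every array. In bulk muscle, fewer cells of a type and less RNA per cell cannot be told apart, and this holds for each difference given below.

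At 2 days, 4 channel genes were higher and 2 lower in DMD KO than in WT muscle by limma at an adjusted p under 0.05, out of 62. The higher ones were the potassium channel genes KCNN3, KCNMA1 and KCNJ13 and the exchanger gene CLCN3, by 0.43 to 0.54 on the log2 scale. The lower ones were the potassium channel gene KCNJ3, by a log2 difference of -1.28, and the calcium channel subunit gene CACNG7, by -0.44. Over all probe sets, 7.09% were called higher and 2.85% lower in the same comparison, so the share of channel genes called, 6.45% higher and 3.23% lower, lay near that background. At 3 months only KCNIP2, a potassium channel partner, was higher and only SCN4B, a sodium channel subunit gene, was lower, against 4.62% of all probe sets called higher and 1.36% called lower. No gene was called at both ages, 8 were called at one of them, and the sets of animals at the 2 ages are separate.

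At 2 days every DMD KO array lay above every WT array for 4 channel genes (6.45%) and below for 9 (14.5%), against 14.1% and 10.5% of all probe sets. At 3 months the counts were 5 above (8.06%) and 8 below (12.9%), against 12.9% and 10.1% of all probe sets. KCNMA1 and KCNN3 lay above WT without overlap at both ages, and KCNJ3 and SCN4B lay below WT without overlap at both ages. KCNJ2 was without overlap at both ages in opposite directions. The matching shares of all probe sets without overlap at both ages are not given here.

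By sign alone, 44 of 62 differences were negative at 2 days and 51 at 3 months, where 53.7% and 58.9% of all probe sets were negative. A total of 40 channel genes were negative at both ages, and the matching share of all probe sets is not given here. The median difference of the channel genes was -0.14 at 2 days and -0.13 at 3 months, against -0.022 and -0.049 over all probe sets. The medians moved with single arrays. Without WT replicate 3 at 2 days the median of the channel genes was -0.056, with 44 genes (71.0%) negative, and that of all probe sets was -0.0078, with 51.8% negative. Without DMD KO replicate 3 at 3 months the median of the channel genes was -0.049, with 39 genes (62.9%) negative, and that of all probe sets was -0.024, with 55.7% negative. Most channel genes could be bounded rather than called: the 95% interval of the difference lay within 0.5 on either side of 0 for 35 genes at 2 days and 38 at 3 months, and within 1 for 61 and 60.

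**Figure D2:**
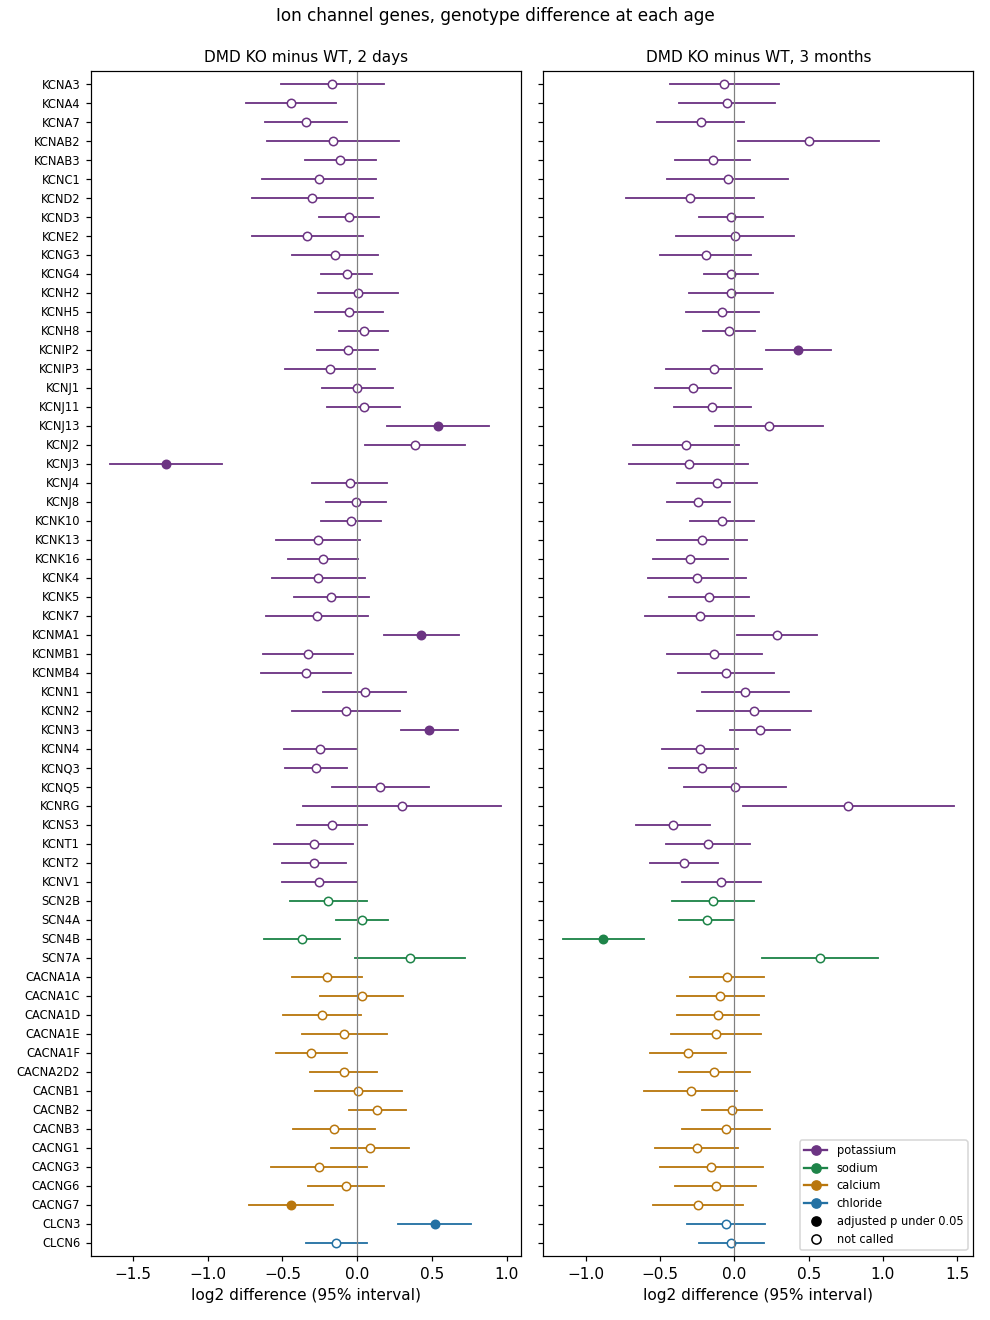
Log2 difference of DMD KO minus WT (x axis) for each of the 62 channel genes (y axis) at 2 days (left) and 3 months (right), with the 95% interval of limma as a bar, colour by ion and filled points for adjusted p under 0.05. KCNJ3 at -1.28 and SCN4B at -0.88 stand farthest from 0 among the filled points, and most points lie slightly left of 0 at both ages.

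Inward rectifiers pass potassium more easily into the cell than out of it and hold the resting potential. Among the 7 measured, 1 was higher and 1 lower at 2 days and none was called at 3 months. KCNJ3 encodes Kir3.1, a subunit of the channel that G proteins open in heart atrium and neurons. Its level at 2 days was 6.06, 6.21, 6.28 and 6.52 in DMD KO, against 7.17, 7.57 and 7.89 in WT. Every knockout array lay well below every WT array, and the knockout mean was dim.

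The KCNJ3 difference at 2 days was -1.28 (SE 0.17, 95% interval -1.65 to -0.90, adjusted p 0.00116 by limma). At 3 months KCNJ3 read 6.45, 6.63 and 6.68 in DMD KO and 6.70, 6.77 and 7.21 in WT. The DMD KO mean was dim at this age too. The groups nearly touched there, and the difference of -0.31 (95% interval -0.71 to 0.09, adjusted p 0.396) was not called. The 2 genotype differences themselves differed by 0.97 (SE 0.25, adjusted p 0.046), which made KCNJ3 the 1 channel gene called in the interaction, which subtracts the genotype difference at 2 days from the one at 3 months. Over all probe sets the interaction called 3.06% higher and 1.99% lower. This call was kept in 3 of the 13 fits that left out 1 array, with adjusted p up to 0.112, whereas the difference at 2 days kept its call in all 13, from -1.46 to -1.10.

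KCNJ13 encodes Kir7.1, known from epithelia such as those of the choroid plexus and the retina. At 2 days it read 7.20, 7.55, 7.61 and 7.76 in DMD KO, against 6.73, 7.004 and 7.24 in WT. The lowest knockout array lay below the highest WT array, although KCNJ13 was called (0.54, SE 0.16, adjusted p 0.0492). The call was lost without WT replicate 3 at 2 days (0.41, adjusted p 0.204) and kept in 4 of the 13 fits without 1 array. At 3 months its levels were 7.33, 7.33 and 7.57 in DMD KO and 6.92, 7.26 and 7.34 in WT, which overlapped (difference 0.23, adjusted p 0.478).

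KCNJ2 encodes Kir2.1, which sets the resting potential of muscle fibres. Its level at 2 days was 9.00, 9.02, 9.21 and 9.28 in DMD KO and 8.33, 8.91 and 8.99 in WT. At 3 months it was 8.32, 8.52 and 8.78 in DMD KO and 8.86, 8.86 and 8.89 in WT. The knockout arrays thus lay just above the WT arrays at 2 days and just below them at 3 months.

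Neither KCNJ2 difference between genotypes was called. It was 0.39 at 2 days (95% interval 0.05 to 0.72, adjusted p 0.13), with 0.17 to 0.51 under the alternatives, and -0.32 at 3 months (95% interval -0.68 to 0.03, adjusted p 0.315). The interaction of -0.71 (SE 0.23, adjusted p 0.105) was not called either. Within DMD KO, KCNJ2 fell with age, to a mean of 8.54 ± 0.23 (SD, n = 3) at 3 months, against 9.13 ± 0.14 (SD, n = 4) at 2 days (difference -0.59, SE 0.15, adjusted p 0.0345).

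The channel that ATP closes in muscle is built on KCNJ11, which encodes Kir6.2, and its relative in vessels on KCNJ8, which encodes Kir6.1. KCNJ11 averaged 7.82 ± 0.11 in DMD KO and 7.77 ± 0.24 in WT at 2 days, and 7.65 ± 0.08 in DMD KO and 7.80 ± 0.09 in WT at 3 months (SD). Its groups overlapped at both ages, with differences of 0.04 (95% interval -0.20 to 0.29) and -0.15 (95% interval -0.41 to 0.11). For KCNJ8, named after its values were seen, the 3 knockout arrays at 3 months, 8.02, 8.21 and 8.34, lay below the WT arrays, 8.38, 8.38 and 8.54, and the difference of -0.24 was not called (adjusted p 0.202). Of the 5 measured markers of the smooth muscle and pericytes that carry Kir6.1, RGS5 was lower in DMD KO at 3 months, with a difference of -0.74 (adjusted p 0.013). The other 4, ACTA2, CNN1, TAGLN and PDGFRB, differed by -0.36 to -0.03 and were not called. The list mean was 7.68 to 8.11 in DMD KO and 8.12 to 8.28 in WT, and the part of these cells in the KCNJ8 values was not tested. The other inward rectifiers, KCNJ1 and KCNJ4, differed by -0.28 to 0.0012.

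Potassium channels opened by calcium or sodium lower excitability after a calcium or sodium load. Of 9 such genes, 2 were higher at 2 days and none was lower or called at 3 months. KCNN3 encodes SK3, the small-conductance channel that returns in denervated rodent muscle. At 2 days it read 6.04, 6.20, 6.29 and 6.32 in DMD KO, against 5.64, 5.73 and 5.82 in WT. All 4 knockout arrays lay above all 3 WT arrays, at dim levels in both groups.

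The KCNN3 difference at 2 days was 0.48 (SE 0.087, 95% interval 0.29 to 0.67, adjusted p 0.00557 by limma), and the call was kept in all 13 fits without 1 array. At 3 months KCNN3 read 5.91, 5.98 and 5.99 in DMD KO and 5.72, 5.82 and 5.83 in WT. Both group means were dim at this age too. The groups were again apart, and the difference of 0.17 (95% interval -0.03 to 0.37, adjusted p 0.353) was not called. Its interaction of -0.31 was not called (adjusted p 0.234). Of the 16 genes in the end plate and denervation list, 6 were measured, and none was called at 2 days. At 3 months CHRNG, the fetal acetylcholine receptor subunit, was higher by 0.51 (adjusted p 0.0283 by limma). NCAM1, an adhesion molecule of denervated and regenerating fibres, was higher by 1.37 (adjusted p 3e-05). The others, CHRND, RAPSN, MYOG and RUNX1, differed by 0.11 to 0.59 and were not called. The relation of KCNN3 to this list was not tested.

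KCNMA1 encodes the pore of BK, the large-conductance channel gated by calcium and voltage. Its level at 2 days was 7.78, 7.78, 7.79 and 8.15 in DMD KO, against 7.31, 7.40 and 7.63 in WT. At 3 months it was 7.44, 7.55 and 7.58 in DMD KO and 7.10, 7.29 and 7.33 in WT. Knockout arrays lay above WT arrays at both ages, and 1 knockout array at 2 days stood far above the other 3.

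KCNMA1 was called at 2 days (0.43, SE 0.12, adjusted p 0.0365) and not at 3 months (0.29, 95% interval 0.02 to 0.56, adjusted p 0.231). Without WT replicate 3 at 2 days the first difference was 0.36 and was not called (adjusted p 0.14), and the call was kept in 6 of the 13 fits without 1 array. The genes of the beta subunits that accompany this pore, KCNMB1 and KCNMB4, differed by -0.33 and -0.34 at 2 days and by -0.13 and -0.06 at 3 months, none called. Smooth muscle also carries BK, and the list of smooth muscle and pericyte markers had 5 measured genes, none called at 2 days, with list means of 8.01 to 8.12 in DMD KO and 8.06 to 8.25 in WT.

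KCNT2, a sodium-activated channel gene, read 6.36, 6.43, 6.46 and 6.66 in DMD KO and 6.60, 6.85 and 6.85 in WT at 2 days. At 3 months it read 6.05, 6.08 and 6.24 in DMD KO and 6.42, 6.43 and 6.54 in WT. These levels are dim except for WT at 2 days, and both genotype differences, -0.29 (adjusted p 0.0827) and -0.34 (adjusted p 0.0854), missed the threshold. Of the other SK and IK genes, KCNN1, KCNN2 and KCNN4, and the second sodium-activated gene, KCNT1, none was called, with differences from -0.29 to 0.13.

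**Figure D3:**
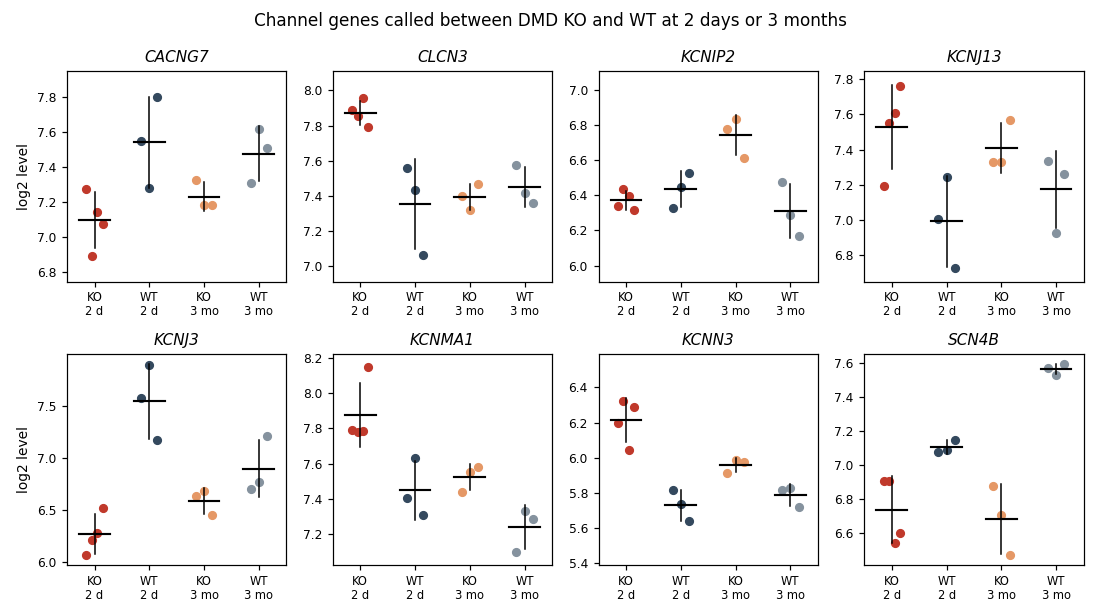
Log2 level on each array (points) with group mean and SD (bars) for the 8 channel genes called between DMD KO and WT at either age, 1 panel for each gene with its own y axis, not starting at 0, and groups on the x axis. For KCNJ3 the 4 knockout points at 2 days, 6.06 to 6.52, lie below the WT points, 7.17 to 7.89, and for SCN4B the knockout points lie below WT at both ages.

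Voltage-gated potassium channels end the action potential. The set holds 15 of their alpha subunit genes, from the KCNA, KCNC, KCND, KCNG, KCNS, KCNV, KCNQ and KCNH families, of which KCNG, KCNS and KCNV encode silent partners that act only with other alpha subunits. None of the 15 was called at either age in the fit of all 4 groups, with differences from -0.44 to 0.16 at 2 days and from -0.41 to 0.0043 at 3 months, and 12 and 14 of them were negative. Without DMD KO replicate 3 at 3 months the 14 became 8. The nearest to the threshold, named after its values were seen, was KCNS3 at 3 months. Its levels of 7.47, 7.65 and 7.70 in DMD KO lay below 7.88, 8.06 and 8.11 in WT, with a difference of -0.41 (95% interval -0.66 to -0.16, adjusted p 0.0549). KCNS3 was called under 6 alternatives: quantile normalization (adjusted p 0.0441), median centring (0.0492), probe sets above the median level (0.0489), array weights (0.00685), without WT replicate 3 at 2 days (0.0228) and without WT replicate 1 at 3 months (0.0421). At 2 days KCNA4, with a difference of -0.44, was called without DMD KO replicate 1 at 2 days (adjusted p 0.0461), without DMD KO replicate 3 at 3 months (0.0353) and with array weights (0.00355), and KCNQ3 was called with array weights at both ages (0.0179 at 2 days and 0.043 at 3 months). KCNA7, an alpha subunit gene known from muscle, differed by -0.34 at 2 days and -0.23 at 3 months, neither called, and was called at 2 days without DMD KO replicate 1 (adjusted p 0.0283).

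Accessory subunits change how these channels open or reach the surface. Of 6 genes classed here as accessory, 1 was called. KCNIP2 binds calcium and partners the KCND channels that carry the fast outward current of the heart. At 3 months it read 6.61, 6.78 and 6.84 in DMD KO, against 6.17, 6.29 and 6.48 in WT. The groups were apart, and the WT mean was dim.

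The KCNIP2 difference at 3 months was 0.43 (SE 0.10, 95% interval 0.21 to 0.65, adjusted p 0.0249), kept in 9 of the 13 fits without 1 array. At 2 days KCNIP2 averaged 6.37 ± 0.05 in DMD KO and 6.44 ± 0.10 in WT (SD), both dim and overlapping (difference -0.06, adjusted p 0.684). Its interaction of 0.49 (SE 0.14, adjusted p 0.0631) was not called. The genes of its partners, KCND2 and KCND3, differed by -0.30 and -0.02 at 3 months, neither called. KCNRG and KCNAB2, named after their values were seen, had wide intervals at 3 months and were not called. The difference was 0.77 for KCNRG (95% interval 0.06 to 1.48, adjusted p 0.227) and 0.50 for KCNAB2 (95% interval 0.03 to 0.97, adjusted p 0.236). The groups were apart for KCNRG, at 8.41 to 8.86 in DMD KO and 7.62 to 8.28 in WT, and overlapped for KCNAB2. The remaining accessory genes, KCNAB3, KCNE2 and KCNIP3, differed by -0.33 to 0.0016.

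Channels with a pair of pore domains in each subunit carry the background potassium leak. All 6 measured, KCNK4, KCNK5, KCNK7, KCNK10, KCNK13 and KCNK16, had negative differences at both ages, from -0.27 to -0.04 at 2 days and from -0.30 to -0.08 at 3 months, and none was called. The signs were the same in every fit without 1 array of the age compared, and leaving out an array of the other age cannot change them. Of all probe sets, 53.7% were negative at 2 days and 58.9% at 3 months. The gene given here as KCNK16 carries the name KCNK17 in the array annotation and was renamed through its gene number. KCNK5 had a second, dimmer probe set that differed by -0.36 at 2 days and -0.27 at 3 months, also not called, and that of KCNQ5 differed by 0.03 and -0.16.

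Sodium channels start the action potential. Of 4 measured genes, 1 was lower at 3 months and none was called at 2 days. SCN4B encodes a beta subunit that binds the sodium channel pore and shapes its gating. Its level at 3 months was 6.47, 6.71 and 6.88 in DMD KO, against 7.54, 7.57 and 7.60 in WT. The 3 WT arrays lay close together and far above the knockout arrays.

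The SCN4B difference at 3 months was -0.88 (SE 0.13, 95% interval -1.16 to -0.61, adjusted p 0.00117 by limma), and it stayed called in all 13 fits without 1 array, from -0.98 to -0.77. At 2 days SCN4B read 6.54, 6.60, 6.91 and 6.91 in DMD KO and 7.08, 7.09 and 7.15 in WT. The groups were again apart, and the difference of -0.37 (95% interval -0.62 to -0.11, adjusted p 0.0673) narrowly missed the threshold. The age difference, 3 months minus 2 days, was -0.05 in DMD KO and 0.46 in WT, neither called, and the interaction of -0.51 was not called (SE 0.17, adjusted p 0.126). SCN2B, a beta subunit gene next to SCN4B in the RefSeq annotation of Sscrofa11.1 with 0 protein-coding genes between them, differed by -0.19 at 2 days and -0.14 at 3 months (adjusted p 0.306 and 0.555).

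SCN4A encodes Nav1.4, the pore of the sodium channel of muscle fibres. At 2 days it averaged 7.79 ± 0.08 in DMD KO and 7.76 ± 0.06 in WT (SD), a difference of 0.03 (95% interval -0.14 to 0.20). At 3 months its levels were 7.72, 7.76 and 7.80 in DMD KO and 7.88, 7.91 and 8.06 in WT. The knockout arrays lay below the WT arrays, by a difference of -0.19 that was not called (95% interval -0.37 to -0.0021, adjusted p 0.258).

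SCN7A encodes Nax, a sodium-sensing relative of these pores that is also found in glia and other cells outside the fibre, and it is named after its values were seen. Its levels were dim in all 4 groups, and at 3 months they were 4.64, 4.68 and 4.91 in DMD KO and 4.14, 4.16 and 4.21 in WT. These did not overlap, and the difference of 0.58 was not called (95% interval 0.19 to 0.97, adjusted p 0.0904). Of 4 measured nerve and Schwann cell markers, SOX10, GFAP, NEFL and CDH19, none was called between genotypes, with list means of 6.55 to 6.66 in DMD KO and 6.68 to 6.86 in WT at 3 months.

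Calcium channels in muscle sense voltage in the transverse tubule. The 13 measured genes include 5 pore genes (CACNA1A, CACNA1C, CACNA1D, CACNA1E and CACNA1F), 1 alpha2delta gene (CACNA2D2), 3 beta genes and 4 gamma genes. At 2 days 1 was called lower, and at 3 months none was called, although all 13 differences were negative, from -0.31 to -0.02. Without DMD KO replicate 3 at that age 8 of the 13 were negative. The muscle dihydropyridine receptor is represented by its beta subunit gene CACNB1 and its gamma subunit gene CACNG1.

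CACNB1 read 9.28, 9.62 and 9.73 in DMD KO and 9.71, 9.78 and 10.04 in WT at 3 months, with overlap and a difference of -0.30 (95% interval -0.61 to 0.01, adjusted p 0.288). At 2 days its means were 9.40 ± 0.15 in DMD KO and 9.40 ± 0.16 in WT (SD), a difference of 0.0058 (95% interval -0.28 to 0.30). CACNG1 read 8.25, 8.61 and 8.64 in DMD KO and 8.60, 8.77 and 8.89 in WT at 3 months. Here too the groups overlapped, with differences of -0.25 at 3 months (95% interval -0.53 to 0.02) and 0.09 at 2 days (95% interval -0.18 to 0.35).

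CACNG7 encodes a gamma subunit best known as a partner of AMPA receptors in the brain, and CACNG6, its neighbour in the same annotation with 0 protein-coding genes between them, a gamma subunit found in muscle. CACNG7 at 2 days read 6.89, 7.08, 7.14 and 7.28 in DMD KO, against 7.28, 7.55 and 7.80 in WT. The highest knockout array and the lowest WT array lay next to each other, and WT replicate 3 was the highest array. The difference of -0.44 (SE 0.13, adjusted p 0.0499) was at the edge of the threshold, and without that WT array it was -0.31 and was not called (adjusted p 0.208). The call was kept in 3 of the 13 fits without 1 array and was also lost under quantile normalization and median centring. CACNG6 was not called at either age, with differences of -0.08 at 2 days (95% interval -0.33 to 0.18) and -0.13 at 3 months (95% interval -0.40 to 0.15). The contrast between both genes was not tested.

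The 2 chloride genes encode exchangers of endosomes and related inner membranes. CLCN3 encodes ClC-3, and its level at 2 days was 7.79, 7.85, 7.89 and 7.96 in DMD KO, against 7.06, 7.43 and 7.56 in WT. All knockout arrays lay above all WT arrays, and the lowest value was that of WT replicate 3. The difference was 0.52 (SE 0.11, 95% interval 0.27 to 0.76, adjusted p 0.0134 by limma), and without that array 0.37 (adjusted p 0.0403), still called. It was called in all 13 fits without 1 array.

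At 3 months CLCN3 read 7.32, 7.40 and 7.46 in DMD KO and 7.36, 7.41 and 7.58 in WT. These overlapped, with a difference of -0.06 (95% interval -0.32 to 0.21). The interaction of -0.58 (SE 0.17, adjusted p 0.0694) was not called. CLCN6, which encodes ClC-6 of late endosomes, differed by -0.14 at 2 days (95% interval -0.34 to 0.06) and -0.02 at 3 months (95% interval -0.24 to 0.20), with the tied values described above.

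Across age, from 2 days to 3 months, 1 channel gene rose and 3 fell in DMD KO, against 4.47% of all probe sets called higher and 3.57% called lower. KCNIP2 rose, with a mean of 6.74 ± 0.12 at 3 months and a dim mean of 6.37 ± 0.05 at 2 days (difference 0.37, SE 0.095, adjusted p 0.0296). CLCN3 fell, with means of 7.39 ± 0.07 at 3 months and 7.87 ± 0.07 at 2 days (difference -0.48, SE 0.11, adjusted p 0.0193). KCNJ2 fell as given above, and KCNT2 fell at dim levels, with a difference of -0.35 (SE 0.098, adjusted p 0.0457). None of these 4 calls was kept in all 13 fits without 1 array.

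In WT muscle, 0 channel genes were called between the ages by limma, against 1.71% of all probe sets called higher and 1.18% called lower, and 8 of 62 reached an unadjusted p under 0.05, 4 in each direction, against 2832 of 21893 probe sets. In WT the differences of the genes called in DMD KO were -0.12 for KCNIP2, 0.10 for CLCN3, 0.12 for KCNJ2 and -0.30 for KCNT2. For none of these 4 was the difference between the genotypes in the age effect called (adjusted p 0.0631 to 0.933). The largest age differences in WT were -0.65 for KCNJ3 (adjusted p 0.0934), -0.62 for SCN7A (adjusted p 0.103) and -0.54 for KCNN2. Without WT replicate 3 at 2 days KCNJ3 was called in WT, at -0.84 (adjusted p 0.0208).

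**Figure D4:**
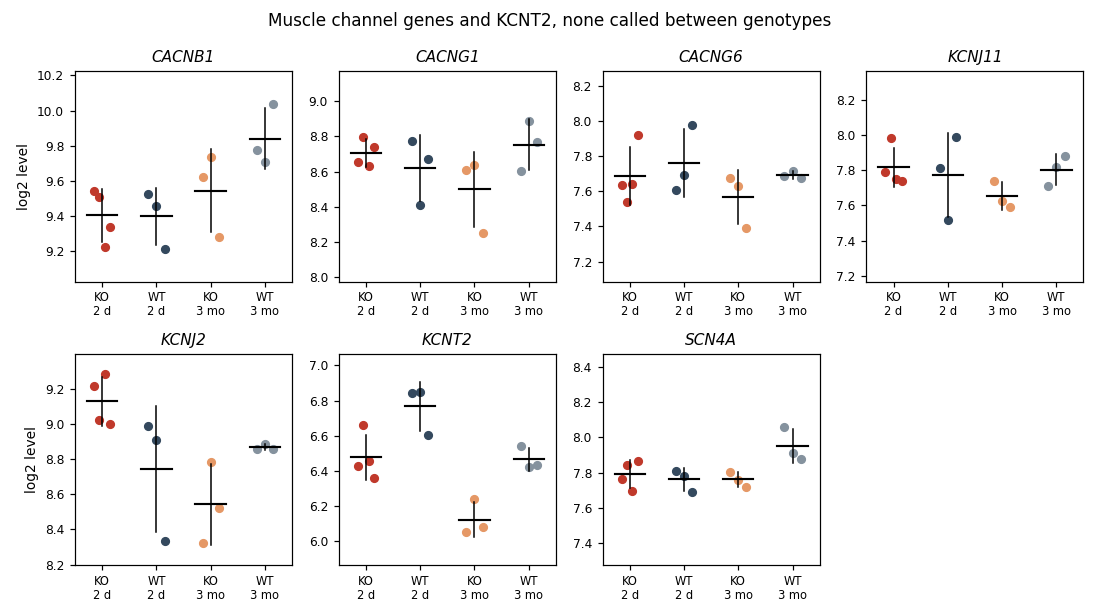
Log2 level on each array (points) with group mean and SD (bars) for 6 channel genes of the muscle fibre and KCNT2, none called between genotypes, 1 panel for each gene with its own y axis, not starting at 0, and groups on the x axis. KCNJ2 in DMD KO averages 8.54 at 3 months and 9.13 at 2 days, and the groups of SCN4A differ by 0.03 at 2 days and -0.19 at 3 months.

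Partners of the channels in excitation and calcium handling were read from a list of 29 genes, of which 18 were measured. At 2 days 6 were higher and 2 lower in DMD KO, and the median difference over the 18 was 0.03. Over all probe sets, 7.09% were called higher and 2.85% lower. The list was chosen with earlier results of these data known, so its counts are no test against these shares. The largest positive difference in the list was 1.77 (adjusted p 0.0078 by limma), for SLC12A2, the sodium-potassium-chloride cotransporter NKCC1 that loads cells with chloride. ANK3, the ankyrin that anchors sodium channels, was higher by 0.55 (adjusted p 0.0345) and SLC8A3, a sodium-calcium exchanger, by 0.66 (adjusted p 0.0199). MBNL1, a splicing factor of muscle transcripts that include the chloride channel, was higher by 0.68 (adjusted p 0.0386). ATP1B1 of the sodium pump and CAMK2B, a calcium-dependent kinase, were higher by 0.52 and 0.44 (adjusted p 0.0463 and 0.0235). CASQ1, the calcium buffer of the store, and GEM, an inhibitor of calcium channels, were lower, by differences of -0.41 and -0.53 (adjusted p 0.0404 and 0.0283).

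At 3 months 2 genes of this list were higher and 3 lower, with a median of -0.19. Over all probe sets, 4.62% were called higher and 1.36% lower. PVALB, which binds calcium in the cytosol of fast fibres, was lower by a log2 difference of -4.96 (adjusted p 4.82e-06), ATP2A1, the calcium pump of fast fibres, by -0.95 (adjusted p 0.00214), and CAMK2A by -0.63 (adjusted p 0.00935). ANK3 was higher by 0.65 (adjusted p 0.0276) and GEM by 0.89 (adjusted p 0.00264), so GEM was called in opposite directions at the 2 ages. How the calls of this list at either age depend on single arrays was not examined.

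Markers of other cell types differed between the genotypes as well. Neither their part in the channel values nor the dependence of their calls on single arrays was tested. All 5 measured fibroblast markers were lower in DMD KO at 2 days, with list means of 9.31 to 9.66 in DMD KO and 10.8 in each WT array, and 3 of the 5 were higher at 3 months, with 10.9 to 11.1 in DMD KO and 10.1 to 10.5 in WT. Of 4 measured macrophage markers, MRC1 and AIF1 were higher at 3 months, by 2.28 and 0.72, whereas CSF1R and ITGAM differed by -0.04 and 0.14 and were not called. The macrophage list means at 3 months were 7.589 to 7.996 in DMD KO and 6.86 to 7.15 in WT. Fibre type genes also differed between genotypes at 2 days: MYH7, the slow myosin, was higher by 1.67 and MYH1, a fast myosin, lower by a difference of -0.91.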

How the data were processed

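Total RNA was hybridised to Affymetrix whole-transcript arrays, per the labels' protocols, and the submitters' processing notes name Affymetrix Power Tools as the software. Neither its version nor how it summarised and normalized the probes is known here. The deposited values were taken as log2 levels from their range, so the log base is inferred. They were used as they stand. Arrays give no counts, and their number limits the precision.

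A probe set was named where the annotation gave it 1 distinct symbol (11171 probe sets, 143 of them with the symbol repeated), 275 had several and 10447 none. The fit used lmFit and eBayes of limma 3.58.1 (R 4.3.3) on every probe set over the 4 groups, with two-sided tests and Benjamini-Hochberg adjustment over 21893 probe sets in each of 5 comparisons, and called at an adjusted p under 0.05. SE and intervals are limma's, and SD is that of a group's arrays. The fitting was tested on simulated data.

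Members called between genotypes, the muscle core and the genes called by age or in the interaction were named with values. The members and lists were chosen with earlier results of these data known. Alternatives were other fits, normalizations, filters, probe set choices, array weights and leaving out each array.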

Additional observations from a re-analysis of the deposited data

Results flagged for a closer look

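KCNMA1 on DMD KO replicate 4 at 2 days lay far above the other 3 arrays of its group, with a gap of 0.977 of the group's whole range. It was 1 of 15 named genes with such an array among the 4 knockout arrays at 2 days, and chance gives about 1 in 20. Without that array the KCNMA1 difference at 2 days was 0.34 and was not called (adjusted p 0.0935 by limma).

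The genotype difference of KCNJ3 was 0.97 higher at 3 months than at 2 days (adjusted p 0.046 by limma, a smaller deficit), with knockout arrays below WT arrays at both ages. This call was kept in 10 of 22 alternatives, among them 3 of the 13 fits without 1 array.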

How the results depend on the processing

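No called difference of a channel gene changed sign under the alternatives run. The 2-day calls of KCNJ3 and KCNN3 and the 3-month call of SCN4B were kept under every alternative in which the gene was fitted, and the 2-day call of CLCN3 under 21 of 23. The other 9 named calls were each lost under 5 to 14 alternatives, and the cause was not tested. The count of channel genes called was 6 at 2 days, 2 at 3 months, 4 by age in DMD KO, 0 by age in WT and 1 in the interaction. The share of all probe sets called under each alternative is not given here, so the counts below show only how the calls depend on the fit. With array weights, whose estimation stopped short of its tolerance, these counts were 19, 6, 6, 5 and 5. With probe sets above the median level only, fewer genes were fitted and the counts were 2, 1, 2, 0 and 0. With only the groups of a comparison in the fit, the 2-day count was 2, and with median centring the interaction count was 0. Leaving out each array gave 3 to 10 at 2 days, 1 to 4 at 3 months, 0 to 4 by age in DMD KO, 0 to 1 by age in WT and 0 to 1 in the interaction. The 2-day count was 3 without DMD KO replicate 2, 3 or 4 or WT replicate 1 or 3 at that age, or without DMD KO replicate 2 at 3 months, and 10 without WT replicate 2 at 2 days.

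Replicate numbers are not said to pair animals. Correlations of same-numbered deviations from the group means ran from -0.495 to 0.33 over 18 pairs, 4 of them above 0.1. An array correlated best with its own number in 7 of 36 cases. Deviations from means of 3 or 4 arrays cannot exclude pairing. With the replicate number as a block the counts were 2, 1, 0, 0 and 0. Dim levels, 3 or 4 arrays in a group and tied values limit the precision. In total 10 of the 62 channel genes were called in at least 1 of 5 comparisons, and the matching share of all probe sets is not given here.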
